A study of Mus musculus with 2 samples.

Results

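The 5hmC peaks described here lie in the megabases of the mouse genome that are most crowded with genes. 5-hydroxymethylcytosine (5hmC), which TET enzymes make by oxidising 5-methylcytosine, was mapped by 5hmC-Seal, in which a modified glucose is put on 5hmC, tagged with biotin and captured on streptavidin. The autosomes were cut into windows of 1 Mb from position 0 of each chromosome, and a window was taken as gene-dense when it held the midpoints of 30 or more protein-coding genes. Of 113 such windows, 20 were left out because over 50% of their genes were olfactory receptor (Olfr), vomeronasal receptor (Vmn), zinc-finger (Zfp) or keratin-associated protein (Krtap) genes. The remaining 93 windows lay on 18 autosomes, with none on chromosome 12, and held 3828 protein-coding genes. Their members are the 8064 peaks with a midpoint there, which is 7.44% of the 108395 peaks of the series. The rule used the gene annotation and no peak value.

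The cells were wild-type prospermatogonia of stage E17.5, which are the germ cells that a testis holds before birth. DNA of 30000 frozen cells pooled from several embryos was extracted, and 50 ng of it entered the capture. The series has 2 libraries of batch 1, 1 made after capture and 1 made from the same kind of DNA without it, and the values here come from the peak list of the captured library. With 1 library there is no test across samples, so each comparison below is a description of that library, the intervals cover counting error only, and the cells pooled from several embryos give no measure of the spread between embryos. A peak list measures no RNA, so the label of the cells could not be checked against marker expression.

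In mammalian cells 5hmC is found mostly in the bodies of genes and at distal regulatory elements, while promoters rich in the dinucleotide CpG are usually free of cytosine methylation and so hold little that TET enzymes could oxidise. Gene-dense regions bring many such promoters, short genes and early-replicating, GC-rich sequence together. The foetal male germline regains DNA methylation at this stage after having erased it.

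Starts of genes show how CpG content and peaks relate in these windows. A promoter here is the stretch from 250 bases before to 50 bases after an annotated start, and its CpG ratio is the number of CG dinucleotides observed over the number that its C and G content would give. The motif searched was CG, which reads the same on both strands; 97.0% of the 3046 promoters of gene-dense windows and 96.0% of 12722 in other autosomal windows hold at least 1. The sequences are RefSeq's for assembly GRCm38.p6, 5′ to 3′ on the strand of the gene, with each CG in capitals. The gene Eef2, which encodes the ribosomal translocase of translation elongation, is shown because its whole body was covered by a peak while its promoter had none. Its promoter holds 34 CG in 300 bases, a ratio of 1.11, and the peak, of fold enrichment 8.28, begins 854 bp past the start. The other promoters lay wholly inside a peak. Eps8l1, a gene of an actin regulator, and Nfix, a transcription factor gene whose start shown here lies inside its annotated span, had the highest folds among such wholly covered promoters with a ratio of at least 0.6. Catsper3, a gene of the sperm calcium channel, and Tnni3, the gene of cardiac troponin I, had the highest folds among those below that ratio.
Eef2 promoter, chr10:81176381-81176680, plus strand: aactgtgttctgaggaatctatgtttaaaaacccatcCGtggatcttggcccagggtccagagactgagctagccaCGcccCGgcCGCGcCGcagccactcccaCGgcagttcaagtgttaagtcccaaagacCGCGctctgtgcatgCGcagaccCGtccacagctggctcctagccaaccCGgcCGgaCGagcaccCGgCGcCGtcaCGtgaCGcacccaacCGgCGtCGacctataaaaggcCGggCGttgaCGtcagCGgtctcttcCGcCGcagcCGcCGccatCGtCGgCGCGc
Eps8l1 promoter, chr7:4460447-4460746, plus strand: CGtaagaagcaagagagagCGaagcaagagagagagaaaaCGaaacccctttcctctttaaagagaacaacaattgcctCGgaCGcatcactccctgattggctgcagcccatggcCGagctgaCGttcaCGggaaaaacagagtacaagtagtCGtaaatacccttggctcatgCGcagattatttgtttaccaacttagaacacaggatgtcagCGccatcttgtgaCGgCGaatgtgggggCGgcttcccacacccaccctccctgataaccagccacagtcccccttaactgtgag
Nfix promoter, chr8:84780033-84780332, minus strand: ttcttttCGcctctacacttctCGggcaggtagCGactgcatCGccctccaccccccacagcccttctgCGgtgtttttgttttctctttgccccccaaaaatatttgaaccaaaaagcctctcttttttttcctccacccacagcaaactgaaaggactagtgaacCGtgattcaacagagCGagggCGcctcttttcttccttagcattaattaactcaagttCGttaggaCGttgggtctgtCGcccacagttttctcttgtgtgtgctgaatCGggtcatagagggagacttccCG
Catsper3 promoter, chr13:55784329-55784628, plus strand: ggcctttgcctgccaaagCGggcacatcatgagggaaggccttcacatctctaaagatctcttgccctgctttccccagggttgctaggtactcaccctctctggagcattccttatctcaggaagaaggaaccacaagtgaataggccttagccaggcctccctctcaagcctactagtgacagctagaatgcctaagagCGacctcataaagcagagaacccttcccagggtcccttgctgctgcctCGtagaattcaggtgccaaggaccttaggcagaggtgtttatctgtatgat
Tnni3 promoter, chr7:4522479-4522778, minus strand: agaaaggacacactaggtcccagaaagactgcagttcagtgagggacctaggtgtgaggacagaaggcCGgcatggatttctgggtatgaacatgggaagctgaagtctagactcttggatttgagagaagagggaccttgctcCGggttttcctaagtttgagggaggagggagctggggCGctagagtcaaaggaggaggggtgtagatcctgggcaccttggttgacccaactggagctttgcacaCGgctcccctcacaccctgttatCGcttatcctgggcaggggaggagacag

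The peak over the Eps8l1 promoter had a fold of 4.89 and that over the Nfix promoter 3.47, at CpG ratios of 0.713 and 0.739. The peaks over the promoters of Catsper3 and Tnni3 had folds of 7.77 and 5.15, at ratios of 0.147 and 0.236. Eef2 thus has more CG in its promoter than the 14 of Eps8l1, the 13 of Nfix, the 3 of Catsper3 and the 5 of Tnni3. The Eef2 promoter was added to the sequences after its values were seen.

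Gene-dense windows carried 86.7 peaks per Mb (95% Poisson interval 84.8 to 88.6), against 42.5 (42.3 to 42.8) in the other 2300 autosomal windows, a ratio of 2.04 (1.99 to 2.09). They make up 3.87% of the autosomal sequence and hold 7.61% of the autosomal peaks. Peaks covered 8.73% of their sequence and 3.77% of that of the other windows. Over the 93 windows the number of peaks was 86.7 ± 32.6 (SD), with a lowest value of 5, a median of 86 and a highest value of 174. The median of the other windows was 34, and 86 of the 93 gene-dense windows lay above it, where 50.7% of all 2413 autosomal windows do. The groups overlapped all the same, since 234 of the 2300 other windows held at least 86 peaks. No autosomal window held more than the 174 peaks of the richest gene-dense window.

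The number of peaks climbed with the number of genes in steps, with no jump at 30 genes. Windows without a protein-coding gene had 16.2 peaks per Mb, those with 1 to 4 genes 27.1, those with 5 to 9 genes 48.4, those with 10 to 19 genes 65.9 and those with 20 to 29 genes 72.9. Windows below 30 genes were kept whatever their gene families, while the 20 family-cluster windows, at 28.5 peaks per Mb, were left out. The step from 72.9 to the 86.7 of gene-dense windows, and the ratio of 2.04, thus hold with the family filter on the gene-dense side only. At the edge of the rule, 13 windows of 28 genes had a median of 77 peaks and 7 windows of 29 genes a median of 87, while 4 windows of 30 genes had 89 and 3 windows of 31 genes 81. Past 30 genes the relation was weak: the 42 gene-dense windows with 40 or more genes had 88.8 peaks per Mb (86.0 to 91.7) and the 51 with 30 to 39 genes had 85.0 (82.5 to 87.6). Across the 93 windows Spearman's rho between genes and peaks was 0.19 and Pearson's r was 0.14, values over regions of 1 library that share its depth. Counted per gene, gene-dense windows had 2.11 peaks for each protein-coding gene and the other windows 6.12.

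**Figure D1:**
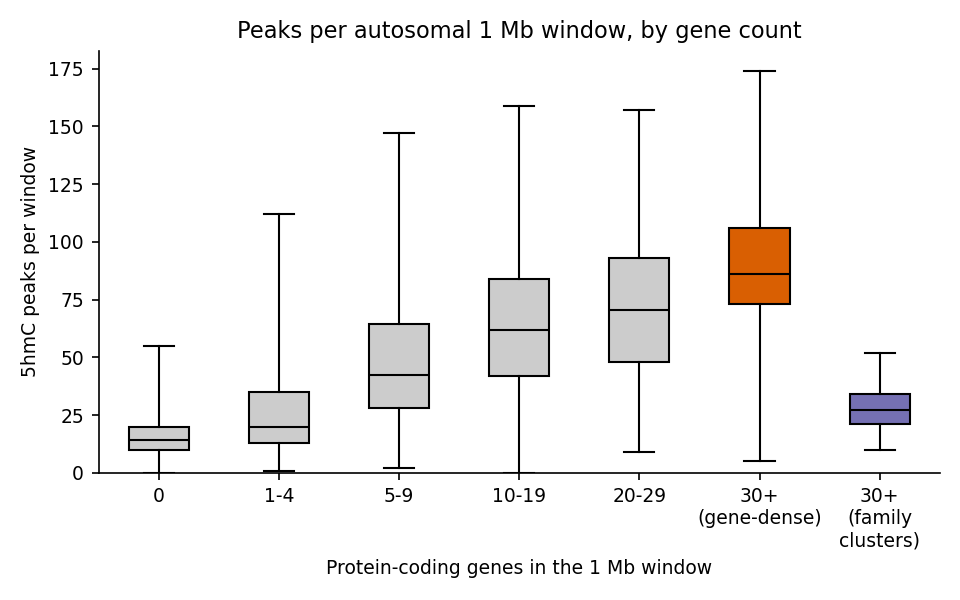
Peaks per autosomal 1 Mb window (vertical axis) in classes of protein-coding gene count (horizontal axis); boxes show the quartiles and median over windows and whiskers reach the lowest and highest window. The gene-dense median of 86 stands above all other classes, and the 20 family-cluster windows, with as many genes, have a median of 27.

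The 20 windows left out by the rule are as crowded with genes but carried few peaks. They had 28.5 peaks per Mb (26.2 to 30.9), with a range over windows from 10 to 52, and none of them reached the lower quartile of 73 peaks of the gene-dense windows. Of their sequence 19.6% lay inside genes, against 63.9% in the gene-dense windows and 49.0% in the other windows.

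The excess of gene-dense windows was largest among weakly enriched peaks. The median fold enrichment, the ratio of captured signal to the background the peak caller assumed, was 3.29 in gene-dense windows and 3.34 in the others, but the upper tail differed: 90% of gene-dense peaks had a fold of at most 4.50, and 90% of the others a fold of at most 5.48. Of the gene-dense peaks 379, or 4.70% (exact Clopper-Pearson 95% interval 4.25 to 5.19), belonged to the top 10% of autosomal peaks by fold, where the share over all autosomal peaks is 10% by construction and that in the other windows was 10.3%. Peaks whose −log10 q reached 5 came to 5.09 per Mb (4.64 to 5.57) in gene-dense windows and 5.24 in the others, a ratio of 0.970 (0.883 to 1.06). Their density was much the same in windows of every gene count, from 4.89 per Mb at 1 to 4 genes to 5.76 at 20 to 29 genes, with 5.54 where there was no gene. The family-cluster windows had 8.40 such peaks per Mb (7.18 to 9.77). The ratio of 2.04 therefore holds for the list as deposited, which reaches down to a −log10 q of 1.01, and fell to 1.33 when the limit was set at 3.

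**Figure D2:**
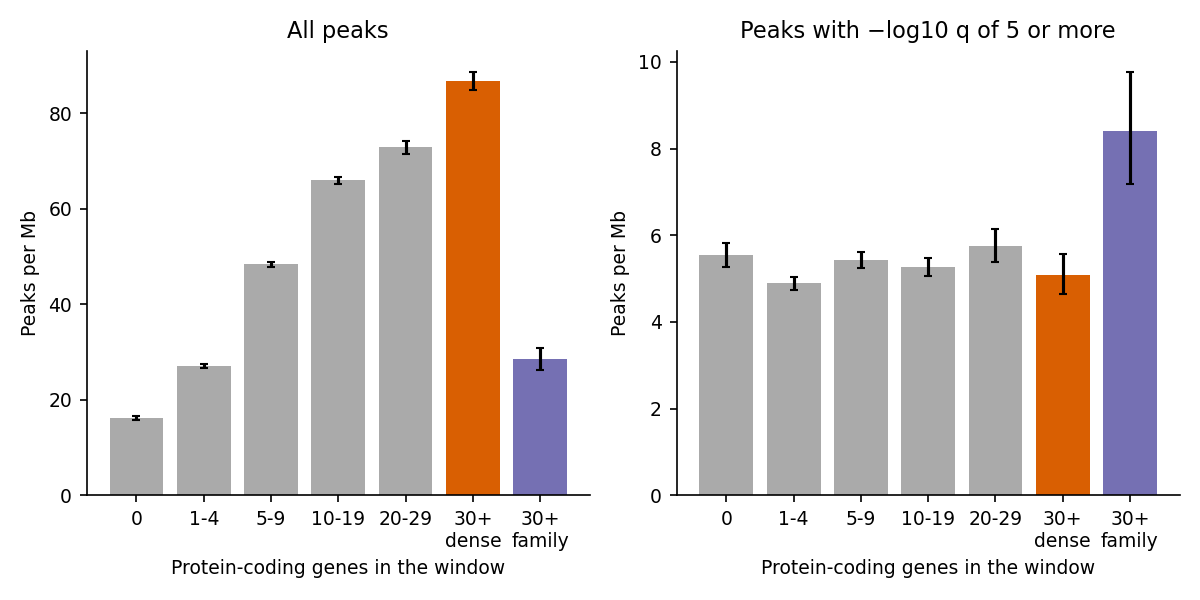
Peaks per Mb (vertical axes) in classes of windows by protein-coding gene count (horizontal axes), for all peaks on the left and for those whose −log10 q reached 5 on the right; bars start at 0 and error bars are exact Poisson 95% intervals. All peaks run from 16.2 per Mb without genes to 86.7 in gene-dense windows, while the stricter peaks stay between 4.89 and 5.76 outside the family clusters.

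Peaks of gene-dense windows were somewhat wider and closer together. Their median width was 725 bp against 633 bp, and 10.9% of them were wider than 2 kb against 7.86%. The median gap to the preceding peak was 5.45 kb against 8.70 kb. Joining peaks within 1 kb left 84.6 per Mb.

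The same pattern was seen on nearly every chromosome. Of the 18 autosomes with a gene-dense window, 17 had a higher mean number of peaks per window there than per Mb in their other windows, with a median ratio of 1.93 and a highest ratio of 2.85 on chromosome 14. The exception was chromosome 18, at 0.942, where the gene-dense sequence is 1 window that holds the clustered protocadherins. Chromosome 7 contributed 16 windows and 1374 peaks and chromosome 11 contributed 12 windows and 1213 peaks. The windows formed 62 runs, the longest being 5 neighbouring windows on chromosome 11 from 98000001 to 103000000 with 439 peaks and 210 genes.

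The windows with the most peaks combined many peaks with bodies covered over a large share. The richest, on chromosome 11 from 116000001 to 117000000, had 174 peaks for 34 genes, with 51.2% of the body of Evpl, the envoplakin gene, and 47.7% of Exoc7, of the exocyst, covered. The window on chromosome 2 from 32000001 to 33000000 had 166 peaks for 35 genes, and 10 of them touched the body of Eng, the endoglin gene, of which 28.3% was covered. On chromosome 17 from 46000001 to 47000000 there were 150 peaks for 38 genes, with 58.1% of Cul7, a cullin gene, and 52.5% of Vegfa, the gene of an angiogenic growth factor, under peaks. On chromosome 19 from 5000001 to 6000000 there were 140 peaks for 51 genes, with 63.9% of the splicing factor gene Sart1 and 43.8% of the acetyltransferase gene Kat5 covered. On chromosome 7 from 45000001 to 46000000 there were 137 peaks for 66 genes, with 64.5% of Irf3, an interferon regulatory factor gene, and 55.0% of Izumo1, the sperm gene needed for fusion with the egg, covered.

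The windows with the fewest peaks held tandem arrays of related genes of other families than those the rule left out. The lowest value was 5 peaks, on chromosome 3 from 92000001 to 93000000, where 42 genes include the Lce and Sprr genes of the cornified epidermis, and none of the 42 had a peak within 1 kb of an end. The defensin cluster on chromosome 8 from 21000001 to 22000000 had 13 peaks for 41 genes. The Ms4a cluster on chromosome 19 from 11000001 to 12000000 had 16 peaks for 32 genes, and the class I H2-T and H2-M genes of the major histocompatibility complex (MHC), on chromosome 17 from 36000001 to 37000000, had 22 for 32 genes. The type I interferon cluster on chromosome 4 from 88000001 to 89000000 had 23 peaks for 35 genes, 11 of which touched the body of the long neighbouring gene Focad. The peaks in these windows were not weaker than elsewhere, with window medians of fold from 3.44 to 5.05.

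The most gene-rich windows fell on both sides. The window with the most genes, 67, was the protocadherin window on chromosome 18 from 37000001 to 38000000, where promoters are chosen among a tandem array to label neurons, and it had 38 peaks. The window on chromosome 11 from 69000001 to 70000000, with 62 genes, had 130 peaks and covered 60.4% of the body of Aurkb, a mitotic kinase gene. The window on chromosome 17 from 35000001 to 36000000, with 61 genes that include H2 and Ly6 genes, had 111 peaks. They covered 69.1% of Prrc2a and 67.1% of the helicase gene Dhx16. This window lies next to the H2-T window with 22 peaks. The window on chromosome 2 from 25000001 to 26000000, with 60 genes, had 75 peaks and covered 59.5% of Paxx, a DNA repair gene.

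To describe this split, genes were counted as tandem when their symbol stem, the letters before the first digit or hyphen, was shared by at least 5 genes of the window, a measure chosen after the window counts were seen. Gm and Rik symbols were given no stem and counted as not tandem, and H2- was kept as a stem. The window on chromosome 10 from 77000001 to 78000000, with many Gm genes among Krtap genes, thus counted as 0% tandem, with 86 peaks. A shared stem need not mean related genes, since Tmem, Slc and Cd were counted too. Windows with 50% or more of tandem genes numbered 10 and had a median of 32 peaks, 12 windows with 25 to 50% had a median of 68.5, and 71 windows with less had a median of 92. Spearman's rho between tandem share and peaks was -0.52 and Pearson's r -0.63 over the 93 windows. The share of sequence inside genes had a rho of 0.51 with the peaks (Pearson's r 0.56), and the share of promoters with a CpG ratio of at least 0.6 had a rho of 0.48 (Pearson's r 0.59). The promoter share leaves out the windows without a listed promoter, on chromosome 15 from 76000001 and on chromosome 18 from 37000001. These measures move together and their separate parts in the result were not tested. Strong peaks again differed little, since those with a −log10 q of at least 5 came to 5.20 per Mb in the 10 most tandem windows and 4.93 in the 71 least tandem windows. Windows with keratin clusters varied: the window on chromosome 15 from 101000001 to 102000000, 72.7% tandem, and that on chromosome 11 from 100000001 to 101000000, 36.6% tandem, each had 113 peaks. The neighbouring window on chromosome 11 from 99000001 to 100000000, 63.6% tandem with Krtap and Krt genes, had 51.

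**Figure D3:**
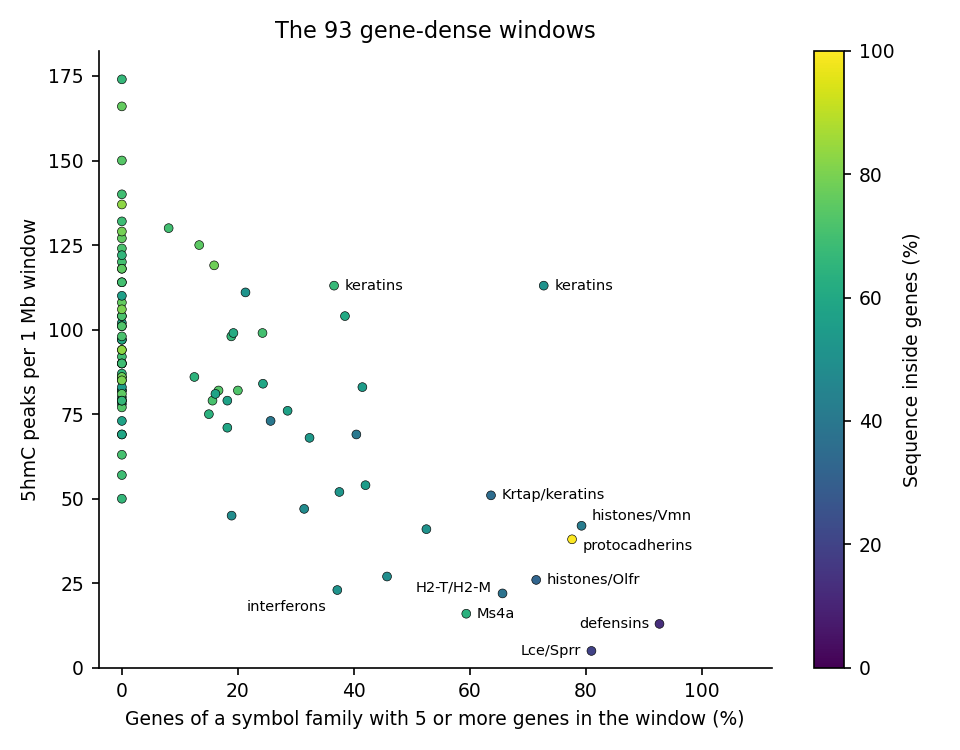
The 93 gene-dense windows by the percentage of genes in symbol families of 5 or more in the window (horizontal axis) and by peaks per window (vertical axis), coloured by the percentage of sequence inside genes. Gm and Rik symbols count as no family. The Lce and Sprr window is lowest at 5 peaks, and of the windows with keratin genes 2 stand at 113 peaks and that shared with Krtap genes at 51.

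Inside gene-dense windows, peaks lay mostly in the interior of genes. A midpoint within 1 kb of either end of any annotated gene was placed at a gene end, and one elsewhere in a gene span in the interior. Interiors held 5161 peak midpoints, 64.0% (62.9 to 65.0), on 52.2% of the sequence. Gene ends held 16.6% (15.8 to 17.4) on 18.6% of the sequence, and sequence outside genes held 19.4% (18.6 to 20.3) on 29.3%. Relative to sequence, gene ends were thus at 0.894 here, whereas in other autosomal windows they held 7.88% of midpoints on 5.77% of the sequence, a ratio of 1.37. Interiors were at 1.23 here and 1.20 in the other windows. Per Mb of each kind of sequence, gene-dense windows had 106 peaks in interiors against 51.2, 77.5 at gene ends against 58.0, and 57.5 outside genes against 32.6, so all 3 kinds carried more peaks.

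Strong peaks lay outside genes more often than weak ones in both kinds of window. Among the 379 gene-dense peaks of the top 10% by fold, 56.7% (51.6 to 61.8) lay outside genes by their midpoint, and 17.6% (16.7 to 18.5) of the remaining 7685 did so. In the other autosomal windows these shares were 68.2% and 33.8%. Of the 5 gene-dense peaks with the highest fold, the top pair, at 15.99 and 15.2, lay inside Zfp936, a zinc-finger gene, on chromosome 7 from 43148300 to 43149682 and from 43128657 to 43129369. The third, at 13.1 on chromosome 4 from 43492788 to 43493059, lay on Rmrp, the gene of the RNA of RNase MRP. The others were a peak of 11.9 in the non-coding gene Gm40504 on chromosome 8 and another of 11.9 on Rpl14-ps1, a pseudogene of a ribosomal protein gene within Trpm4, on chromosome 7.

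Of the 5 widest peaks 3 lay inside genes. The widest, 12525 bp at a fold of 4.61, lay in Plec, the plectin gene, on chromosome 15 from 76171469 to 76183993. A peak of 9842 bp lay in Prrc2a on chromosome 17 from 35153179 to 35163020 and a peak of 9238 bp at fold 8.54 in Srrm2, a gene of a splicing scaffold, on chromosome 17 from 23815066 to 23824303, which also spans Mir5125. The other 2 were outside annotated genes, 10612 bp on chromosome 1 at 11.7 kb from Alyref2 and 8880 bp on chromosome 8 at 4.66 kb from Defb10.

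Genes of gene-dense windows had a peak near an end more often than other genes. A gene-end peak was found at 1509 of the 3828 protein-coding genes, 39.4% (37.9 to 41.0), where 27.9% of all 20560 autosomal protein-coding genes have such a peak and 26.3% (25.7 to 27.0) of those in other windows. The genes are shorter here, with a median of 8.38 kb against 23.3 kb, but the difference was present in every length class. It was 32.7% against 22.0% below 5 kb, 47.5% against 30.4% from 5 to 10 kb, 42.1% against 30.3% from 10 to 20 kb, 41.1% against 27.0% from 20 to 50 kb and 31.9% (25.5 to 38.7) against 24.0% (22.8 to 25.3) at 50 kb or more. A peak could count for several neighbours: 1409 distinct peaks lay at these gene ends, and 22.5% of them were near 2 or more genes, against 7.83% in the other windows. The difference narrowed with stricter limits: at a −log10 q of 3, 5.30% (4.61 to 6.06) of genes here and 4.06% (3.76 to 4.38) of the others had a gene-end peak, and at 5, 1.44% (1.08 to 1.87) of genes here and 1.31% (1.14 to 1.50) of the others, at intervals that overlap.

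**Figure D4:**
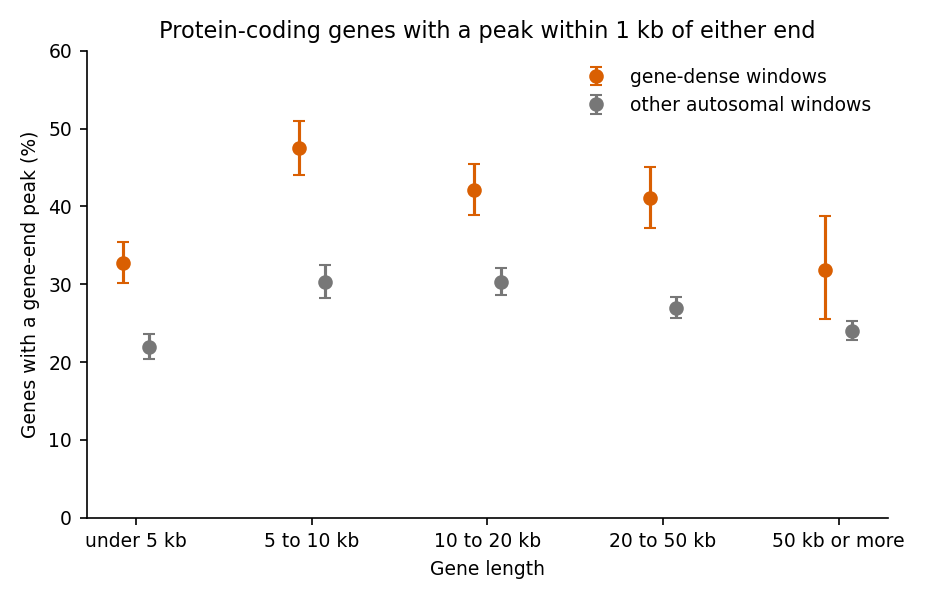
Percentage of protein-coding genes with a peak within 1 kb of either end (vertical axis) in classes of gene length (horizontal axis), for gene-dense and other autosomal windows; error bars are exact Clopper-Pearson 95% intervals. Gene-dense windows are higher in each class, by most at 5 to 10 kb (47.5% against 30.4%).

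The peaks at gene ends were mostly at the far end, away from the start. Among 2001 gene-dense genes of 5 kb or more with a promoter in the RefSeq table, 10.9% (9.61 to 12.4) had a peak within 1 kb of the start and 35.3% (33.2 to 37.5) within 1 kb of the far end. In the other windows the values were 7.70% and 21.7%. Where the promoter had a CpG ratio of at least 0.6, 4.89% (3.70 to 6.32) of gene-dense starts and 39.2% (36.3 to 42.1) of far ends had a peak. With a lower ratio the shares were 18.7% and 30.4%, so the contrast between the ends was largest for genes with CpG-rich starts.

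Few CpG-rich promoters were under a peak. Of the 3046 gene-dense promoters 128 were overlapped by a peak, 4.20% (3.52 to 4.98), where the share over all 16457 autosomal promoters is 3.48%, and 3.44% (3.13 to 3.77) in the other windows. Among the 1490 with a CpG ratio of at least 0.6 it was 6 promoters or 0.403% (0.148 to 0.874), among 631 with a ratio from 0.3 to 0.6 it was 6.81% and among 925 below 0.3 it was 8.54% (6.82 to 10.5). The other autosomal windows gave 0.659%, 7.12% and 6.10% (5.34 to 6.93). At high CpG ratios the intervals of both kinds of window overlap (0.480 to 0.884 in the others).

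Around CpG-rich starts peak coverage stayed below 1% out to 1 kb on each side. The gene-dense set was 803 genes of 10 kb or more with a CpG ratio of at least 0.6. Peaks covered 0.313% of their sequence within 0.25 kb of the start. Coverage was 7.29% from 5 to 1 kb before the start, 11.8% from 1 to 5 kb after it and 14.3% from 5 to 10 kb. In the 541 genes with a lower ratio the dip was shallow, with 5.79% at the start and 10.8% at 5 to 10 kb. In the other autosomal windows, 5440 CpG-rich genes had 0.337% at the start and 8.38% at 5 to 10 kb. Coverage at the start was near the same low value in both kinds of window, and that on either side of it was higher in gene-dense windows.

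**Figure D5:**
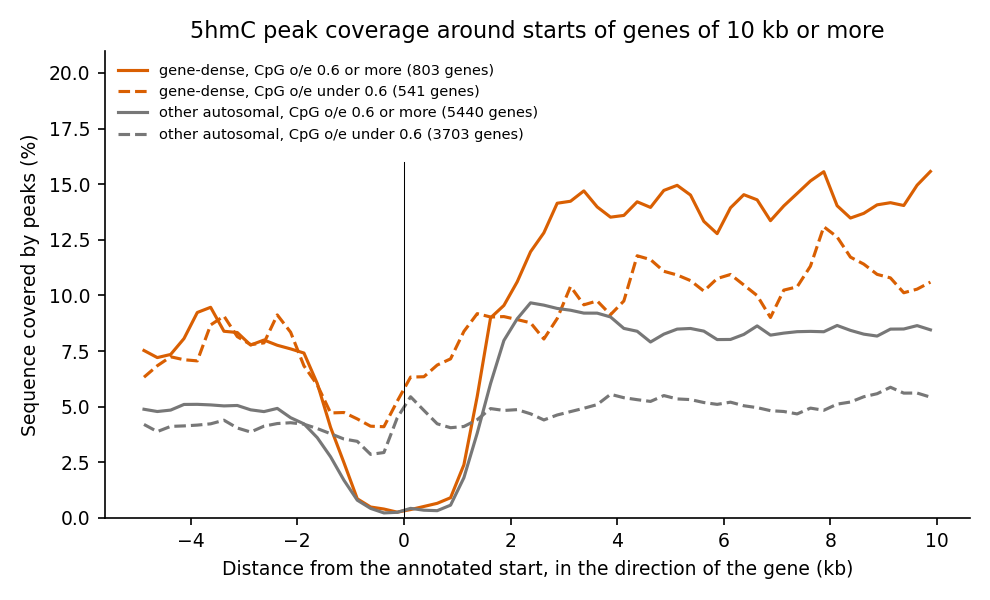
Percentage of sequence covered by peaks (vertical axis) in steps of 250 bp by distance from the annotated start, in the direction of the gene (horizontal axis), for genes of 10 kb or more in gene-dense and other autosomal windows, split at a promoter CpG ratio of 0.6. CpG-rich starts of both kinds of window drop to about 0.3%, and gene-dense genes then reach 14.3% at 5 to 10 kb against 8.38%.

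Gene bodies were more covered than elsewhere. For genes of at least 5 kb, the body is what remains once 1 kb is taken off both ends. Of 2536 gene-dense genes, 2001 or 78.9% had a peak in the body, where 74.8% of all 16048 autosomal genes of that size do, and the median body share covered was 8.65% against 3.52% in the other windows. By length the medians were 7.92% against 0% from 5 to 10 kb, 10.4% against 4.05% from 10 to 20 kb, 9.20% against 4.35% from 20 to 50 kb and 4.92% against 3.36% at 50 kb or more. A body covered over 50% was found in 82 of the 2536 genes, 3.23%, where the share over all autosomal genes of that size is 1.11%, so 82 of the 178 autosomal genes of this kind lie in the gene-dense windows.

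Among the 10 most covered bodies Eef2, at 100%, was followed by the calmodulin gene Calm3 at 91.4%. The laminin gene Lamb2 had 85.1% and Shmt2, of the serine hydroxymethyltransferase of mitochondria, had 84.9%. Ptbp1, the gene of a splicing repressor, had 81.9% under 1 peak and no peak at either end. The homeobox gene Pbx2 had 80.1% and Vat1 76.3%. Pik3r2, of a regulatory subunit of phosphoinositide 3-kinase, had 75.8%, the gene of the histone chaperone Daxx 75.2% and Caskin2 75.2%. Of the 9 of these with a promoter in the table, none had a peak over it, and 8 had a CpG ratio of at least 0.88, the exception being Lamb2 at 0.28.

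The highest folds at gene ends belonged in part to pairs of neighbours. The peak on Rmrp gave 13.1 to Ccdc107, and the ribosomal protein gene Rpl8 had 10.1. The peak inside Srrm2 near its end gave 8.54 to Srrm2 and to Elob, the elongin B gene, and that in Eef2 gave 8.28 to Eef2 and to the kinase gene Dapk3 beside it, whose body had no peak. The tubulin gene Tubb5 had 8.51, the retinol dehydrogenase gene Rdh9 8.28, H2-T-ps 8.19 and the olfactory receptor gene Olfr53 8.17.

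The gene lists that follow were chosen with earlier results known and are described by counts only. Among epidermal families, keratin genes had gene-end peaks at a higher share than the Lce, Sprr and S100a genes. The keratin list took symbols of Krt and a number, and all 49 such genes lie in gene-dense windows. A gene-end peak was found at 30 of them, 61.2%, where the autosomal background is 27.9% and the share over gene-dense genes 39.4%. The median length of the 49 was 7.42 kb, and 47.5% of gene-dense genes of 5 to 10 kb had a gene-end peak. Neighbouring keratin genes could share a peak, as Krt78 and Krt8 did at a fold of 3.41. Keratin genes whose symbols end in a letter are not in the list: of these, Krt33a had a fold of 4.99 and Krt6a 3.08, and Krt33b and Krt6b had no gene-end peak. Within the list, Krt34 had the highest fold at 4.46, followed by Krt19 at 4.42 and Krt5, a gene of the basal layer of stratified epithelia, at 4.16. Among 35 keratin genes whose promoter was listed, 10 had a peak over it, beside the background of 3.48% of promoters. All 10 had a CpG ratio below 0.6. Over gene-dense promoters the share was 6.81% at a ratio from 0.3 to 0.6 and 8.54% below 0.3. In contrast 3 of 45 genes of the Lce, Sprr and S100a families, 6.67%, had a gene-end peak, and these were S100a13 at 3.73, S100a16 at 3.72 and S100a2 at 2.75. None of the Lce or Sprr genes was among them.

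Other clustered families, except for Ly6 genes, had gene-end peaks at shares below the 39.4% of all gene-dense genes and the autosomal 27.9%. Histone genes, with a median length of 0.502 kb, had a gene-end peak at 9 of 64, where 32.7% of gene-dense genes under 5 kb had one. They were led by H1f7 at 3.98, H4c17 at 3.96 and H4c4 at 3.60. Kallikrein protease genes had one at 4 of 26, with Klk11 and Klk12 sharing a peak of 4.97 and Klk6 at 2.99. Genes with H2 symbols, taken by symbol and not all histocompatibility genes, had one at 7 of 33, led by H2-T-ps at 8.19, H2-Q6 at 4.77 and H2-Ke6 at 3.71. Clustered protocadherin genes had one at 4 of 57, led by Pcdhb9 at 4.10, Pcdhb5 at 4.08 and Pcdha6 at 3.80; genes of the alpha and of the gamma cluster share last exons, so their spans overlap. The 6 Hoxc genes in these windows, which pattern the body axis, had none. Ly6 genes had a gene-end peak at 5 of 13, 38.5%, near the share over all gene-dense genes. They were led by Ly6g5b at 4.54, Ly6g5c at 4.16 and Lypd5 at 3.74.

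Lists of translation and germline genes held few genes here, and the share over all gene-dense genes is 39.4%. Cytosolic ribosomal protein genes had a gene-end peak at 14 of 27, 51.9%, against 18 of 55 elsewhere, led by Rpl8, Rpl28 at 6.18 and Rps25 at 4.79. Of 5 germ cell and pluripotency genes 4 had one: Henmt1, of piRNA methylation, at 5.45, Spocd1, of piRNA-directed DNA methylation, at 4.69, the arginine methyltransferase gene Prmt5 at 4.20 and Pou5f1, the OCT4 gene, at 3.59. Nanos3 had none. Body coverage was 20.6% in Spocd1 and 27.3% in Prmt5, above the gene-dense median of 8.65%. Meiosis genes had one at 4 of 11, 36.4%, near the share over all gene-dense genes, and at 5 of 28 elsewhere. Iho1 at 3.72, Rec8 at 3.46 and Msh5 at 2.84 were highest, and the median body coverage of the 11 was 2.11%. Sperm formation genes had one at 5 of 7, against 12 of 25 elsewhere, led by Catsper3 at 7.77, Spem1 at 5.13 and Catsper1 at 3.80.

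A list of DNA methylation, 5hmC and chromatin regulators had 8 genes in these windows, 5 of them histone methyltransferase genes (Ehmt2, Kmt2b, Kmt2d, Nsd1 and Setdb1). All 8 had a peak in the body, where the background is 74.8% and the share over gene-dense genes 78.9%. Their median length was 26.9 kb, and 90.9% of gene-dense genes of 20 to 50 kb had a body peak. A gene-end peak was found at 4 of the 8, where the share over gene-dense genes is 39.4%. The median body coverage of the 8 was 17.3%, against 9.20% in gene-dense genes of 20 to 50 kb. Tet3, of a 5-methylcytosine dioxygenase, had a gene-end fold of 4.27, Ehmt2, of the H3K9 methyltransferase G9a, had 4.08 and Kmt2b, of an H3K4 methyltransferase, had 3.03. Body coverage was 52.0% in Ehmt2 and 46.0% in Kmt2b, and it was 50.0% over 42.4 kb in Kmt2d, another H3K4 methyltransferase gene, named after its value was seen. Setdb1, likewise named, was at 0.732%.

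The remaining lists had few members here. Of 6 complement and heat shock genes, all in 1 window of chromosome 17, 3 had a gene-end peak, with C4b at 3.57, Hspa1l at 3.56 and Hspa1a at 2.77. Of the chemokine genes Cxcl16 (3.09) and Cxcl17 (no gene-end peak), 1 of 2 had one. Of the markers of other testis cells, Amh of Sertoli cells and Insl3 of Leydig cells had no gene-end peak, and Cd68 of macrophages had 3.55. The gene Mpdu1 next to Cd68 had the same gene-end fold, so the peak is not particular to Cd68. Elsewhere 4 of 8 Sertoli and Leydig cell markers and 2 of 8 blood and endothelial markers had a gene-end peak. The autosomal background is 27.9%. The imprinted retrogene Mcts2 had no gene-end peak.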

How the data were processed

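The authors deposited 1 list of broad peaks for the captured library; the library before capture was not analysed here. The build was mm10 and the tools MACS2 2.1.0, Bowtie2 2.5.0, Trim Galore, deepTools 3.5.1, bedtools 2.27.1 and SAMtools 1.16.1, per the submitters' processing notes; what settings and control the peak calling used is not given in the sources used here. Each deposited fold is a ratio of captured signal to the caller's background, the deposited −log10 p and −log10 q belong to whole peaks, and the deposited score was not used. Without read numbers in the file, depth is unknown.

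Genes came from RefSeq's table of GRCm38.p6, the same assembly as mm10. Of 49997 genes, 49603 on assembled chromosomes were used; 340 starting in the opening 3 Mb of a chromosome other than Y were left out, and that gap was not counted as sequence. Promoters came from RefSeq's table, 1 for each gene (the most upstream start listed), for 3046 of the 3828 genes. Calculations used Python 3.11.15, pandas 2.3.3, NumPy 2.4.6 and SciPy 1.17.1, and were tested on simulated peaks of known density. Intervals are exact at 95%. Neighbouring peaks and genes are not independent.

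Named by rule were the 5 windows with most genes, most peaks and fewest peaks, the 5 highest and 5 widest peaks, the 10 genes with the highest gene-end fold and the 10 with the largest body share, the 3 highest of each list and up to 4 promoters; within the named windows, genes were chosen from the most covered bodies after their values were seen. The members and lists were chosen with earlier results of these data known. Peak thresholds, merging, window rules and gene definitions were varied as alternatives.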

Additional observations from a re-analysis of the deposited data

How the results depend on the processing

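Values moved most with the limit on −log10 q. With a −log10 q of at least 3, gene-dense windows had 13.8 peaks per Mb at a ratio of 1.33 to other windows, 1.71% of sequence covered, a median fold of 4.74, 7.14% of peaks in the top 10%, 35.0% of midpoints outside genes, 5.30% of genes with a gene-end peak, 0.492% of promoters under a peak and a median body share of 0%. With at least 5, the values were 5.09 per Mb, a ratio of 0.970 (turned below 1, at an interval of 0.883 to 1.06 that includes 1), 0.756%, 6.02, 10.8%, 53.3%, 1.44%, 0.0985% and 0%. Merging peaks within 1 kb gave 84.6 per Mb. At 20 genes or more a window had 82.2 peaks per Mb, 21.7% of midpoints outside genes and 37.5% of genes with a gene-end peak; at 40 or more, 88.8 per Mb and 17.99% outside. Without Gm and Rik symbols there were 89.2 per Mb, a ratio of 2.09 and 41.1% of genes. Against other windows with at least 1 gene the ratio was 1.88. With protein-coding genes only, 24.4% of midpoints lay outside genes. A gene-end window of 250 bp gave 19.9% of genes, an overlap of at least 150 bp 3.05% of promoters and genes of 20 kb or more a median body share of 7.43%. Leaving out each chromosome in turn gave 84.6 to 87.7 per Mb and ratios of 2.01 to 2.07. Keeping the windows with under 25% tandem genes, chosen after the data were seen, gave 97.3 per Mb, a ratio of 2.29 and 44.6% of genes. Windows starting at 0.5 Mb, any overlap in place of the midpoint and ranking by q moved no value past its interval. No paired analysis was possible because values come from 1 library.

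Depth, the spread between embryos and reads that map to several places could not be assessed from a peak list, and tandem gene arrays are where such reads are frequent; their part in the low counts there was not tested.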

Other observations

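Genes of microRNAs and snoRNAs in gene-dense windows overlapped peaks more often than elsewhere, while other small RNA genes did not clearly do so. Peaks also covered more of all sequence in gene-dense windows, 8.73% against 3.77% in the others. A higher share here is therefore not by itself a trait of these gene classes. Of 210 microRNA genes, 67 overlapped a peak, 31.9% (exact 95% interval 25.7 to 38.7), against 13.7% (11.6 to 16.1) of 926 in other autosomal windows. Genes of snoRNAs, which guide modification of ribosomal RNA, did so at 12 of 100, or 12% (6.36 to 20.02), against 4.12% (3.05 to 5.42) of 1166. Genes of snRNAs had 7.06% (2.63 to 14.7) of 85 here and 3.24% (2.15 to 4.68) of 833 elsewhere, at intervals that overlap. Transfer RNA genes went the other way, with 0 of 190 here and 6 of 181 elsewhere. Long non-coding RNA genes had a peak at 43.3% (39.7 to 47.0) of 736 here and 45.8% (44.9 to 46.7) of 11564 elsewhere, at median lengths of 4986 bp and 8746 bp. Neighbouring small RNA genes can share a peak, and these classes were compared after the other results were seen.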
